A study of Mus musculus with 8 samples.

Results

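Reprogramming cells that carried the histone H3 mutant K36M and faced TGF-beta were compared with WT cells in which the TGF-beta receptor was blocked by Repsox. The comparison took 4 of the 8 libraries of the series, 2 for each group, and covered all 15789 genes that passed a filter on low counts, of 26930 in the table. Both groups were mouse embryonic fibroblasts sampled on day 8 after the OKSM factors (Pou5f1, Klf4, Sox2 and Myc) began to reprogram them, and the medium carries the name AGi. WT cells, which the labels also name H3, received Repsox at 250 nM, and K36M cells received TGFb-1 at 2.5 ng/ml. The labels do not give the H3 gene that carried the mutation, how the mutant or the OKSM factors were expressed, the strain, or whether the libraries within a group were separate cultures. The other 4 libraries were WT cells under TGF-beta and K36M cells under Repsox, also 2 each. Where a library was left out, "WT replicate" and "K36M replicate" name libraries of the compared groups.

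TGF-beta binds a pair of receptors whose kinase activity phosphorylates Smad2 and Smad3. These enter the nucleus with Smad4 and, in fibroblasts, turn on matrix, contractile and cytoskeletal genes. The pathway holds back the change from mesenchymal to epithelial cells that comes early in reprogramming, and Repsox, an inhibitor of the type I receptor kinase, relieves that block. Lysine 36 of histone H3 is methylated by the NSD enzymes and Setd2, mostly over transcribed genes and the regions around them, and a histone with methionine in its place inhibits these enzymes. The question was how far mutant cells exposed to the ligand matched WT cells with the pathway blocked. Genotype and medium both differ between the groups, so their parts in a difference cannot be told apart within this comparison. The values of the other groups are given beside it.

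Library totals ran from 10928302 to 15594217 counts, and 18591 to 19924 genes had at least 1 count. Replicates differed by more than counting error in every group, with a chi-square per degree of freedom of 9.09 for the WT libraries and 5.44 for the K36M libraries compared here, where counting error alone gives a value near 1. Y-linked Kdm5d, a histone demethylase, stood at 42.5 to 49.1 CPM (counts per 1000000, on library sizes scaled by the TMM method) in all 8 libraries. The labelled state, a reprogramming intermediate, was checked on its defining markers. Both compared groups expressed the pluripotency factor Nanog and the epithelial adhesion gene Cdh1 at over 100 CPM, and both still expressed the fibroblast gene Col1a1, at 299 CPM or more. In these bulk samples, fewer cells of a type and less RNA per cell cannot be told apart.

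Of the tested genes, 4204 (26.6%) were called higher and 4267 (27.0%) lower in K36M cells under TGF-beta than in WT cells under Repsox, at an adjusted p below 0.05 in edgeR's quasi-likelihood test with Benjamini-Hochberg adjustment. Together these were 8471 genes (53.7%). The estimate was at least 2-fold for 1876 of the higher genes (11.9% of those tested) and 1680 of the lower ones (10.6%). Likeness was read from the 95% interval of the fold change. It lay inside 2-fold in either direction for 8799 genes (55.7%), of which 3854 were nevertheless called as different by a smaller amount. For 2373 genes (15.0%) that were not called the interval reached past 2-fold, and these were low in expression, with a median average log2 CPM of 0.28. Among the 11740 genes with an average log2 CPM of at least 2, 73.1% had an interval inside 2-fold and 17.0% were called at 2-fold or more. Among the 4049 genes below that level the shares were 5.33% and 38.6%. For 11690 genes (74.0%) both libraries of one group lay above both of the other. The shares of all tested genes, 26.6% higher, 27.0% lower and 55.7% inside 2-fold, are the scale for the list counts below.

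**Figure D1:**
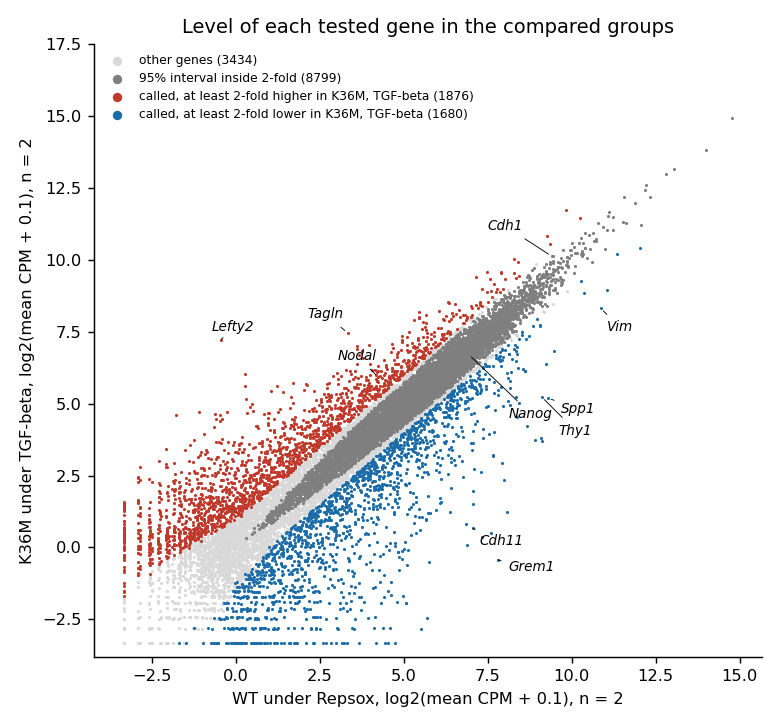
Level of each of the 15789 tested genes in WT cells under Repsox (horizontal axis) and in K36M cells under TGF-beta (vertical axis), as log2 of the mean CPM plus 0.1, each a mean of 2 libraries. Dark grey points are the 8799 genes whose 95% interval lay inside 2-fold, red and blue points those called at least 2-fold higher (1876) or lower (1680), and light grey points the rest; Lefty2 stands far above the diagonal, and Grem1, Cdh11 and Thy1 stand below it.

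As a scale, the same fit gave these counts for the other pairs of groups, which share libraries and were not tested against each other. Each count is of 15789 genes. The pair with the fewest genes called at 2-fold or more was K36M under TGF-beta and K36M under Repsox, with 2998 (19.0%). K36M under TGF-beta and WT under Repsox came next with 3556, then K36M and WT under Repsox with 3858 (24.4%). WT cells under TGF-beta and under Repsox differed by at least 2-fold in 4827 genes (30.6%), and K36M and WT cells under TGF-beta in 6190 (39.2%). The pair farthest apart, with 6886 (43.6%), was WT under TGF-beta against K36M under Repsox. The root mean square difference in log2 CPM followed the same order. It was 0.987 within K36M, 1.19 in the compared pair, 1.21 between genotypes under Repsox, 1.45 within WT, 1.69 between genotypes under TGF-beta and 2.03 in the last pair. Between single libraries it ran from 1.22 to 1.24 in the compared pair and from 1.23 to 1.27 between genotypes under Repsox. These ranges overlapped, so the order of these pairs is not settled. K36M cells facing the ligand were nearer to WT cells under Repsox than to WT cells under the same ligand, on both measures. In a principal component analysis of log2 CPM, the first component (65.56% of the variance) placed WT under Repsox at 2.19 and 6.40, K36M under TGF-beta at -51.6 and -48.3, and WT under TGF-beta at 149 and 149. The second component (18.95%) held the compared groups at its opposite ends, at 77.7 and 77.1 against -61.9 and -61.3.

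**Figure D2:**
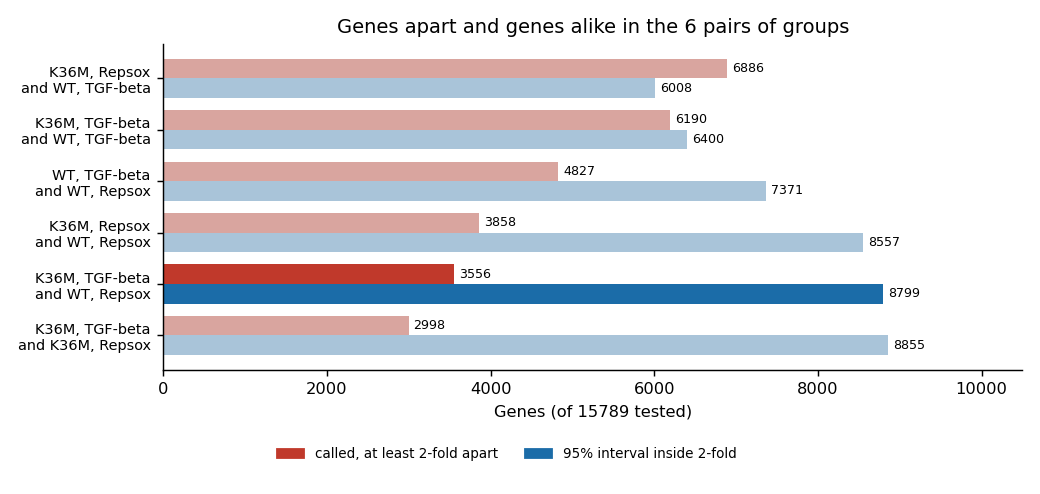
Number of the 15789 tested genes (horizontal axis) that were called and at least 2-fold apart (upper bar) or had a 95% interval inside 2-fold (lower bar), for each of the 6 pairs of groups. The compared pair, in full colour, had 3556 and 8799 genes; only the pair of the K36M groups had fewer genes 2-fold apart (2998).

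The largest increases among well expressed genes were led by Lefty2, a secreted inhibitor of Nodal, and the largest decreases included Slc14a1, a urea transporter, and Aqp5, a water channel. Beyond Lefty2, Trim67 was at 0.135 and 0.604 CPM in the WT libraries under Repsox and 26.1 and 25.9 CPM in the K36M libraries under TGF-beta, a log2 difference of 6.15 ± 0.37 (the value after ± is the standard error of the fit, here and below; 5.40 to 7.49 when either WT library was left out). Ikzf1, a lymphoid transcription factor, was at 0.135 and 0.0755 against 6.49 and 9.44 CPM, a ratio of 73.7 (95% interval of the counts 24.9 to 361). It was highest in WT cells under TGF-beta, at 33.0 and 28.8 CPM. Dok2, an adaptor of receptor kinases, was at 1.01 and 1.21 against 63.3 and 68.4 CPM (5.88 ± 0.21). Rasd2, Acta1, Cntn1, Trim63, Myl3, Krt20 and Car9 completed the increases, with log2 differences of 5.22 (Car9) to 5.45 (Rasd2). Acta1 and Car9 moved to 6.29 and 6.27 without WT replicate 1 under Repsox. Acta1, Trim63 and Myl3 encode skeletal actin, a muscle ubiquitin ligase and a myosin light chain. Car9 encodes a carbonic anhydrase known as a hypoxia gene.

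Slc14a1 stood at 21.7 and 24.6 CPM in WT under Repsox and had no read in K36M under TGF-beta, at least 187-fold lower, with the bound set by 3 counts over the group. Kcnj2, a potassium channel, was at 15.0 and 20.8 CPM and then without a read, at least 143-fold lower. Dmrtc1a and Adamtsl3 were at least 79.7-fold and 75.1-fold lower. Dmrtc1a was at 26.3 and 25.3 CPM in K36M under Repsox, so its absence was not shared by both K36M groups. Aqp5 had 46.0 and 45.6 CPM against 0.0781 and 0 CPM, a ratio of 1110 (199 to 43900). Fmod, a collagen-binding proteoglycan, was 623 times lower (172 to 5150), and Akr1c18 574 times lower (103 to 22700). Grem1, a secreted BMP inhibitor, was at 193 and 253 CPM against 0.234 and 1.05 CPM, a log2 difference of -8.47 ± 0.22 (-9.84 to -7.72 when either K36M library was left out). Pparg, the regulator of fat cell fate, was at 15.9 and 18.8 CPM against 0 and 0.175 CPM, a ratio of 209 (57.7 to 1730), while K36M cells under Repsox had 24.8 and 22.9 CPM. Tspan11 (ratio 419, 74.8 to 16600), Sema6d (-7.57 ± 0.35) and Foxd1 (-7.59 ± 0.32, and -8.44 without K36M replicate 1) were the other large decreases. Intervals of ratios and bounds cover counting error only. The fitted log2 values of genes with so few reads turned on 1 library, and ran from -12.25 to -9.03 for Aqp5, -11.32 to -7.94 for Akr1c18, -10.86 to -6.56 for Pparg and -10.86 to -7.48 for Tspan11 when either K36M library was left out.

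Among known TGF-beta targets more genes were higher than lower, and several stood far below their level in WT cells under TGF-beta. Of 30 tested members of the TGF-beta response list, 17 were higher, 8 lower and 16 had an interval inside 2-fold, beside 26.6%, 27.0% and 55.7% of all genes. The list's median log2 difference was 0.34, beside -1.28 for K36M minus WT under TGF-beta, a comparison that shares the K36M libraries. Tagln, an actin-binding protein of smooth muscle, stood at 9.37 and 10.4 CPM in WT under Repsox, 180.1 and 173 CPM in K36M under TGF-beta and 613 and 643 CPM in WT under TGF-beta. The groups did not overlap, and the compared difference was 4.16 ± 0.10 (adjusted p 7.91e-19; chromosome 9, 45737711 to 45744141, - strand, mm9). K36M cells under Repsox had 10.7 and 11.2 CPM. Within K36M the ligand added 4.01 ± 0.09 on the log2 scale, and within WT 5.99 ± 0.10. Lox, which crosslinks collagen, was at 4.58 and 3.70 against 44.5 and 58.5 CPM, while WT cells under TGF-beta reached 2599.8 and 2652 CPM. Ctgf, a matrix-associated growth factor, was at 40.7 and 45.5 against 156 and 153 CPM, and at 2052 and 2099 CPM in WT under TGF-beta. All 3 lay between the WT media and were nearer in CPM to the blocked one. On the log2 scale Tagln was nearer to WT under TGF-beta (-1.83 ± 0.07 from it), and Lox and Ctgf were nearer to WT under Repsox.

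Feedback genes of the pathway differed in how far they moved. Skil, a repressor of Smad complexes, was at 44.2 and 50.9 against 233 and 224 CPM (2.27 ± 0.08), and Pmepa1, which sequesters Smads, at 20.5 and 14.2 against 70.5 and 73.5 CPM (2.04 ± 0.12). The inhibitory Smad gene Smad7 differed by 0.53 ± 0.08, with 69.3 and 64.8 against 91.9 and 102 CPM, and its interval (0.36 to 0.71) lay inside 2-fold. WT cells under TGF-beta had 333 and 342 CPM of it. Tgif1, a Smad corepressor, and the decoy receptor gene Bambi were not called, with intervals inside 2-fold. The basement membrane collagens Col4a1 and Col4a2 were the most abundant list members inside 2-fold (-0.07 ± 0.07 and -0.24 ± 0.07). Targets that were lower in K36M cells included Ltbp2, a matrix protein, at 449 and 362 against 17.0 and 20.1 CPM (-4.46 ± 0.14). Tgfbi differed by -2.67 ± 0.14, Hmga2 by -2.18 ± 0.09 and Timp3 by -1.52 ± 0.10. Cdkn2b, a cell cycle inhibitor, differed by -0.49 ± 0.08 and Id1, an inhibitor of helix-loop-helix factors, by -1.66 ± 0.09.

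**Figure D3:**
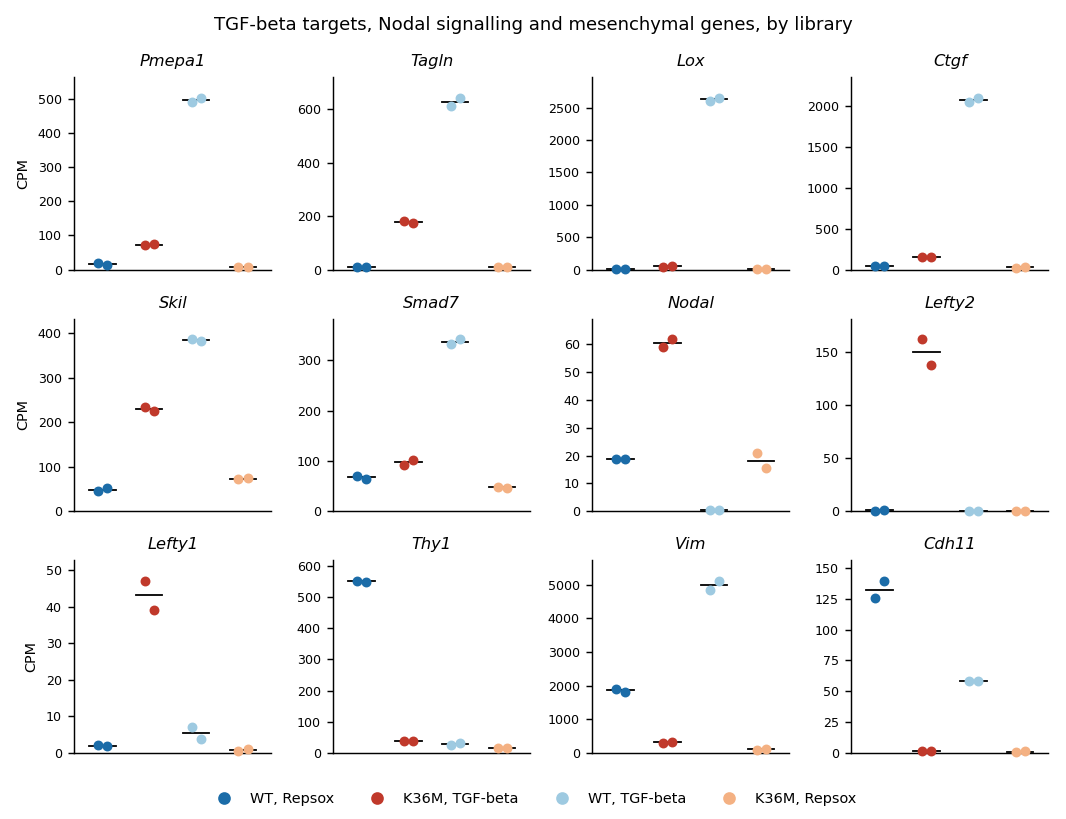
CPM (vertical axis, from 0, with its own scale for each gene) in each of the 8 libraries for TGF-beta targets, Nodal genes and mesenchymal genes; points are libraries, lines means of 2. Tagln, Lox, Ctgf and Skil in K36M under TGF-beta sit between WT under Repsox and WT under TGF-beta, Nodal, Lefty2 and Lefty1 are highest in K36M under TGF-beta, and Thy1 and Cdh11 are highest in WT under Repsox.

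Nodal, a ligand that signals through the same Smad2 and Smad3, and its feedback inhibitors stood higher in both libraries of K36M cells under TGF-beta than in every other library. Of 9 tested genes of the list, 7 were higher and 1 lower, with a median of 1.11. The filter on low counts asks for about 10 counts in each of 2 libraries, and 8 genes reached this in both compared groups. Lefty2 reached it in K36M under TGF-beta and not in WT under Repsox, so the filter set its direction. Lefty2 (chromosome 1, 182823239 to 182829234, + strand, mm9) was at 0.0674 and 1.21 CPM in WT under Repsox and 162 and 138 CPM in K36M under TGF-beta, and at or below 0.43 CPM in the remaining libraries. The log2 difference was 7.92 ± 0.27 (adjusted p 3.12e-16), and it depended on the few WT reads, being 6.94 without WT replicate 1 and 10.93 without WT replicate 2. Lefty1 was at 2.02 and 1.89 against 47.1 and 39.2 CPM (4.46 ± 0.24). Nodal itself was at 18.8 and 18.6 against 59.2 and 61.8 CPM (1.69 ± 0.13), with 20.9 and 15.4 CPM in K36M under Repsox and 0.516 and 0.503 CPM in WT under TGF-beta. Its co-receptor Tdgf1 was higher by 1.11 ± 0.09, and the Smad partner Foxh1 by 0.59 ± 0.13. The convertase Pcsk6 was lower (-2.09 ± 0.12). The convertase Furin lay inside 2-fold (0.27 ± 0.08), and was not called without WT replicate 2 (edgeR, 0.14 at adjusted p 0.084) or without K36M replicate 2 (0.24 at adjusted p 0.062). Gdf3, another ligand of the family, was not called (-0.29 ± 0.18).

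Genes of the primitive streak, the mesendoderm list, were low in level. Of 12 such genes with counts listed, 6 passed the filter on low counts, which asks for about 10 counts in each of 2 libraries. Wnt3a and Fgf8 reached it in K36M under TGF-beta and not in WT under Repsox, so they had to differ, and 4 genes reached it in both groups. Wnt3a was at 0 and 0.0755 against 4.30 and 5.77 CPM, a ratio of 140 (24.7 to 5580; fitted log2 values of 5.88 to 9.05 when either WT library was left out). Fgf8 had no read in WT under Repsox and 1.95 and 1.40 CPM in K36M under TGF-beta, at least 15.8-fold higher. Wnt3 was at 3.17 and 1.06 against 16.1 and 15.99 CPM (2.89 ± 0.31, and 3.91 without WT replicate 1). T, the Brachyury gene, was at 1.62 and 0.907 against 5.86 and 4.81 CPM (2.06 ± 0.40) and the Wnt target Sp5 at 1.75 and 1.44 against 6.72 and 6.47 CPM (2.04 ± 0.36). K36M cells under Repsox had at most 1.13 CPM of any of these 5. Eomes was not called (-0.35 ± 0.22), so that of the 4 genes with enough reads in both groups Wnt3, T and Sp5 were called higher.

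Ligand, receptor and latency genes of the TGF-beta family were lower more often than higher. Of 23 tested, 5 were higher, 13 lower and 9 inside 2-fold, with a median of -0.76. Inhbb, the activin B subunit, was at 121 and 107 against 1.48 and 1.83 CPM (-6.11 ± 0.17), and Inhba at 20.8 and 16.8 against 1.72 and 2.10 CPM (-3.31 ± 0.21). Ltbp1, which anchors latent TGF-beta in the matrix, was at 329 and 329.8 against 22.0 and 23.9 CPM (-3.85 ± 0.09), whereas Ltbp4 was higher, at 44.2 and 34.2 against 258 and 217 CPM (2.60 ± 0.11). The receptor genes Tgfbr1, Tgfbr2 and Tgfbr3 were lower, with log2 differences of -0.78, -1.91 and -3.49. The Smads that carry the signal were close, with Smad4 at 105 and 106 against 113 and 103 CPM (0.03 ± 0.08), Smad2 at -0.17 ± 0.09 and Smad3 at 0.49 ± 0.09, all 3 intervals inside 2-fold. Tgfbr2 was also low in K36M under Repsox, at 17.4 and 19.9 CPM, against 99.2 and 87.3 CPM in WT under Repsox.

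Genes of the related BMP pathway were lower more often than higher, and signalling itself was not measured. Of 18 tested BMP and ID genes 2 were higher and 13 lower, with a median of -1.59. Of the 18, 3 reached the filter's minimum in WT under Repsox and not in K36M under TGF-beta, and 0 the other way. Id1 is also given among the TGF-beta targets above. The ID genes, direct targets of BMP Smads, were all lower, with log2 differences of -1.66 (Id1), -1.66 (Id2), -2.32 (Id3) and -3.13 (Id4). Id3 was at 218 and 191 against 42.6 and 39.4 CPM, and at 55.3 and 59.5 CPM in K36M under Repsox. The ligand gene Bmp4 was lower (-1.57 ± 0.21), and Bmp7 higher (2.12 ± 0.20). The receptor genes Bmpr1a (-0.21 ± 0.09) and Bmpr2 (0.39 ± 0.09) lay inside 2-fold. Bmpr1a was called lower (edgeR, adjusted p 0.048). Its call was lost with DESeq2 (adjusted p 0.10), with other scalings and with only the 4 compared libraries in the fit. Without WT replicate 2 its difference was -0.04. The transducers Smad1 and Smad5 stayed within 2-fold, at -0.12 ± 0.11, not called, and -0.43 ± 0.09.

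Smooth muscle and stress fibre genes were higher, and more genes for matrix crosslinking and remodelling were lower than higher. Of 17 contractile genes 14 were higher and 1 lower (Mylk), with a median of 1.04 (0.79 to 1.09 when 1 library was left out). Of the 17, 2 reached the filter's minimum in K36M under TGF-beta and not in WT under Repsox, and 0 the other way. Acta2, smooth muscle actin, was at 26.4 and 30.1 against 81.6 and 82.8 CPM (1.54 ± 0.09), with 612 and 702 CPM in WT under TGF-beta. Cnn1 was at 0.607 and 0.907 against 12.8 and 12.7 CPM (4.07 ± 0.28), Tpm1 at 244 and 233 against 728 and 753 CPM (1.63 ± 0.06) and the intermediate filament gene Des at 8.70 and 4.83 against 41.3 and 35.3 CPM (2.49 ± 0.19). Des was lowest in WT under TGF-beta, at 0.775 and 1.01 CPM, unlike the others. Flna, an actin crosslinker, was not called, with an interval of -0.23 to -0.01, but was called lower without WT replicate 2 (edgeR, -0.15 at adjusted p 0.022), with library totals as the scaling (-0.13 at 0.028) and with no filter on low counts (-0.17 at 0.0048). Myh9, a nonmuscle myosin, also lay inside 2-fold (0.55 ± 0.06). Of 26 genes for matrix crosslinking and remodelling 7 were higher (26.9%, beside 26.6% of all genes) and 16 lower (61.5%, beside 27.0%). Their median was -0.45. Among these 26, 2 reached the filter's minimum in WT under Repsox and not in K36M under TGF-beta, and 0 the other way. The crosslinker Loxl2 was at 42.3 and 44.4 against 252 and 258 CPM (2.55 ± 0.08), and its relative Loxl3 at 133 and 131 against 11.4 and 12.9 CPM (-3.44 ± 0.13). The collagen hydroxylases P4ha1, P4ha2 and Plod2 were higher by 2.06, 1.42 and 1.57, and P4ha3 was lower (-3.16). The protease inhibitor Timp2 was at 293 and 281 against 28.4 and 32.6 CPM (-3.23 ± 0.09). The gelatinase Mmp9 was higher (3.47 ± 0.22), Mmp3 had no read in K36M under TGF-beta (at least 47.2-fold lower), and Mmp2 and Mmp14 were not called, with intervals of -0.27 to 0.13 and -0.05 to 0.26. Serpine2, a protease inhibitor, lay inside 2-fold (-0.08 ± 0.07).

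K36M cells facing the ligand had higher levels of epithelial genes and much lower levels of most mesenchymal genes than WT cells with the pathway blocked. Of 36 epithelial genes 29 were higher, 1 lower (Esrp2, a call lost under 7 of the other settings) and 16 inside 2-fold, with a median of 0.77. Cdh1, E-cadherin, was at 666 and 680.0 against 1109.6 and 1127 CPM (0.73 ± 0.11), and at 41.1 and 23.1 CPM in WT under TGF-beta. Epcam was higher by 1.40 ± 0.13, the tight junction genes Cldn6 by 2.23 ± 0.09 and Cgn by 1.88 ± 0.09, and the desmosome gene Dsp by 1.54 ± 0.06. The keratins Krt8, Krt18 and Krt7 were higher by 0.45, 0.50 and 0.56, with intervals inside 2-fold. The summed level of the list was 4274 ± 156 CPM (SD, n = 2) in WT cells with Repsox and 8131 ± 261 in K36M cells with TGF-beta, beside 9376 ± 253 in K36M cells with Repsox and 1715 ± 98.0 in WT cells with TGF-beta.

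Of 35 mesenchymal genes 4 were higher and 28 lower, 7 lay inside 2-fold, and the median was -2.32. Of the 35, 4 reached the filter's minimum in WT under Repsox and not in K36M under TGF-beta, and 0 the other way. Thy1, a fibroblast surface protein lost early in reprogramming, was at 552 and 549.7 CPM in WT under Repsox and 37.9 and 36.7 CPM in K36M under TGF-beta (-3.88 ± 0.09). It was also low in WT under TGF-beta, at 25.7 and 31.2 CPM, and in K36M under Repsox, at 14.7 and 13.9 CPM. Cdh11, a mesenchymal cadherin, was at 125 and 139.7 against 1.41 and 1.57 CPM (-6.47 ± 0.17). Vim, vimentin, was at 1904 and 1808 against 302 and 331 CPM (-2.55 ± 0.07), with 4845 and 5115 CPM in WT under TGF-beta. The transcription factor genes Prrx1, Twist1, Twist2, Snai2 and Zeb2 were lower, with log2 differences of -5.66, -4.49, -5.63, -4.63 and -3.44, and so was Pdgfra (-4.64). Snai2 stood at -5.34 without K36M replicate 1. A few abundant matrix genes were close. Fn1, fibronectin, was at 2567 and 2221 against 2004 and 2149.8 CPM (-0.20 ± 0.06, not called without WT replicate 1 or without K36M replicate 1, at adjusted p 0.13 and 0.075 in the same edgeR test). Sparc differed by 0.24 ± 0.06 (not called without K36M replicate 2, 0.17 at adjusted p 0.057). Col1a1 was at 452 and 339.8 against 306 and 299 CPM (-0.39 ± 0.10). Its call was lost with DESeq2 (adjusted p 0.13) and without WT replicate 1 (edgeR, -0.17 at adjusted p 0.090), and WT cells under TGF-beta had 2200.3 and 2590.1 CPM. Fbln2 was higher, at 48.7 and 49.4 against 112 and 121 CPM (1.25 ± 0.08).

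Chemokines and cytokines of fibroblasts were lower as well, 9 of 13 against 3 higher, with a median of -2.17. Of the 13, 4 reached the filter's minimum in WT under Repsox and not in K36M under TGF-beta, and 1 the other way. Ccl2 was at 11.0 and 19.11 against 0.0781 and 0.0874 CPM, a ratio of 180 (49.4 to 1490). Csf1, the macrophage growth factor, was at 231 and 218 against 39.5 and 38.8 CPM (-2.52 ± 0.09). Cxcl10 went the other way (4.45 ± 0.36), and Lif was not called (0.08 ± 0.10). Ccl7 was lower (-5.28 ± 0.35, and -5.97 without K36M replicate 1), and Cxcl16 was higher (1.73 ± 0.13).

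**Figure D4:**
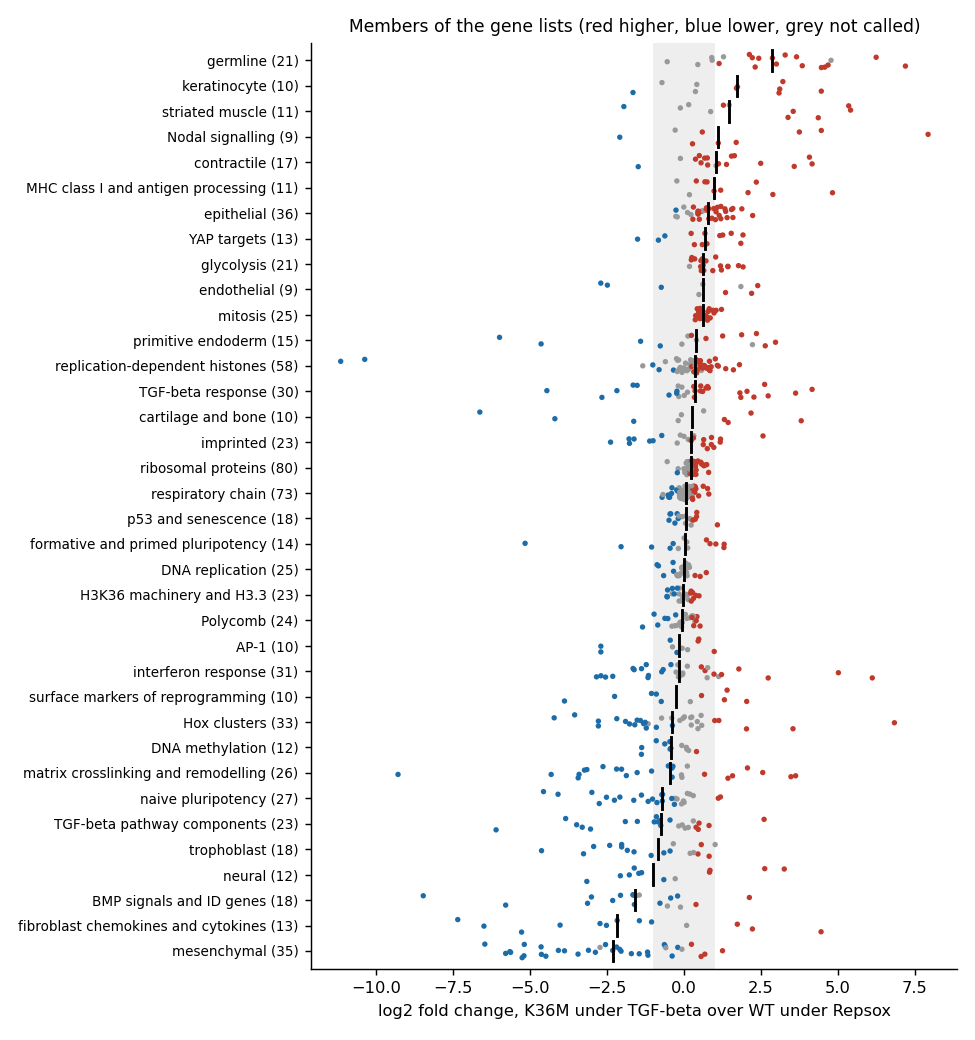
Log2 fold change of K36M under TGF-beta over WT under Repsox (horizontal axis) for the tested members of each gene list with at least 9 of them (vertical axis, number tested in brackets); each point is a gene, black bars are list medians and the grey band marks changes inside 2-fold. Germline genes, most of which passed the filter on low counts through K36M under TGF-beta, sit highest (median 2.87) and mesenchymal genes lowest (median -2.32), while the medians of respiratory chain (0.05), p53 (0.05) and DNA replication genes (-0.01) lie near 0.

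The counts cannot separate endogenous from introduced transcripts of the OKSM genes. Pou5f1 was at 420.4 and 375 against 312 and 309 CPM (-0.36 ± 0.07), inside 2-fold. Klf4 was at 481 and 445 against 194 and 221 CPM (-1.16 ± 0.07), Myc at 379 and 349.8 against 187 and 184 CPM (-0.97 ± 0.07) and Sox2 at 288 and 266 against 101 and 112 CPM (-1.38 ± 0.08). All 4 were lower in K36M under TGF-beta. Their groups did not overlap, as was so for 74.0% of all tested genes.

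More naive pluripotency genes were lower than higher. Of 27 tested, 2 were higher, 17 lower and 13 inside 2-fold, at a median of -0.71. Among these 27, 1 reached the filter's minimum in WT under Repsox and not in K36M under TGF-beta, and 0 the other way. Nanog was at 129.8 and 114 against 103 and 105 CPM and was not called (-0.23 ± 0.19; interval -0.63 to 0.17), with 13.9 and 3.23 CPM in WT under TGF-beta. The compared libraries of Nanog did not overlap, and with no filter on low counts it was called lower (edgeR, -0.28 at adjusted p 0.0093). Zfp42, Dppa4, Klf5 and L1td1 were not called either and lay inside 2-fold, as did Sall4 (-0.72 ± 0.08). Esrrb, a nuclear receptor of the naive network, was at 269 and 207 against 92.7 and 89.7 CPM (-1.38 ± 0.10), and Klf2 at 74.0 and 53.3 against 16.2 and 13.8 CPM (-2.08 ± 0.14). Prdm14, which represses lineage genes, was at 12.5 and 9.37 against 0.313 and 0.612 CPM (-4.57 ± 0.37), and Nr5a2 at 46.8 and 51.6 against 6.41 and 8.21 CPM (-2.75 ± 0.15). Tbx3, Nr0b1, Tdh and Tcl1 were lower (-1.63, -2.26, -2.99 and -2.52). In K36M under Repsox Prdm14 was at 7.44 and 8.45 CPM and Klf2 at 86.0 and 81.9 CPM, so that both were lower under the ligand within K36M. Lin28a was higher (1.18 ± 0.10). The median change of the list was 0.29 for K36M against WT under Repsox, -1.26 between the media in K36M and -5.71 between the media in WT, comparisons that share libraries. Formative and primed genes gave 5 higher and 5 lower of 14 (35.7% each, beside 26.6% and 27.0% of all genes). Their median was 0.04 (-0.07 to 0.16 when 1 library was left out). Among these 14, 2 reached the filter's minimum in WT under Repsox and not in K36M under TGF-beta, and 1 the other way. Foxd3 was at 13.0 and 8.31 against 0.156 and 0.437 CPM (-5.16 ± 0.44, and -6.01 without K36M replicate 2), and Dnmt3a was not called (0.09 ± 0.09). The cadherin gene Cdh2 differed by -2.05 ± 0.13 and Etv5, a target of FGF signals, by -1.05 ± 0.08. Among 10 surface markers of reprogramming 4 were higher and 5 lower. Alpl, alkaline phosphatase, was higher (1.31 ± 0.13), and Kit, Cd44 and Spp1, the osteopontin gene of the naive list, were lower (-2.26 ± 0.13, -0.90 ± 0.09 and -4.09 ± 0.16). Icam1 and Cd24a lay inside 2-fold (0.57 ± 0.13 and 0.20 ± 0.10).

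**Figure D5:**
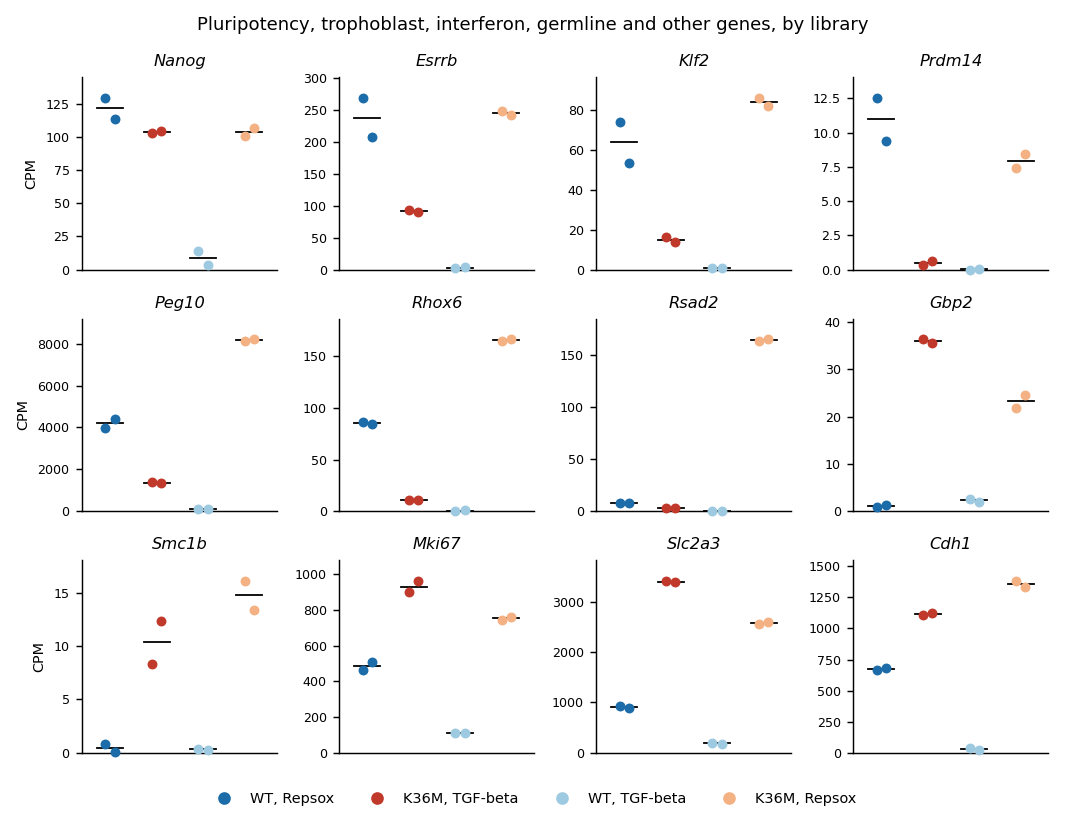
CPM (vertical axis, from 0, with its own scale for each gene) in each of the 8 libraries for pluripotency, trophoblast, interferon, germline, division, glucose transport and epithelial genes; points are libraries, lines means of 2. Nanog lies between 103 and 130 CPM in WT under Repsox and K36M under TGF-beta, Esrrb, Klf2, Prdm14, Peg10 and Rhox6 are lower in K36M under TGF-beta, and Gbp2, Smc1b, Mki67, Slc2a3 and Cdh1 are higher.

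Genes of the placental lineage were lower in K36M under TGF-beta, with 11 of 18 lower and 3 higher at a median of -0.86. Among these 18, 2 reached the filter's minimum in WT under Repsox and not in K36M under TGF-beta, and 1 the other way. Rhox6 was at 86.6 and 84.0 against 11.3 and 11.0 CPM (-2.94 ± 0.11), Gata2 at 144 and 125 against 27.4 and 22.9 CPM (-2.42 ± 0.10) and the imprinted retrotransposon gene Peg10 at 3986 and 4399 against 1375 and 1343 CPM (-1.63 ± 0.09). K36M cells under Repsox had the highest levels of all 3, with 8148 and 8214 CPM of Peg10. Sfmbt2, an imprinted placental gene, lay inside 2-fold (-0.45 ± 0.09). Eomes and Gata3, which define the trophoblast lineage, were not called, and Cdx2 was at most 1.40 CPM in either group. Imprinted genes went both ways, 11 higher (47.8%) and 7 lower (30.4%) of 23, beside 26.6% and 27.0% of all genes. Their median was 0.23. The growth inhibitor Cdkn1c was at 297 and 275 against 56.0 and 53.3 CPM (-2.39 ± 0.10), and the zinc finger gene Plagl1 at 40.6 and 45.9 against 257 and 254 CPM (2.56 ± 0.09). H19, a long noncoding RNA, was at 3162 and 2772 against 2675 and 2409.6 CPM and was not called (-0.22 ± 0.19; interval -0.61 to 0.16), while WT cells under TGF-beta had 8.09 and 30.2 CPM and K36M cells under Repsox 11993 and 11231 CPM. The compared libraries of H19 did not overlap, and it was called lower with no filter on low counts (edgeR, -0.27 at adjusted p 4.4e-09) and with only the 4 compared libraries in the fit (-0.22 at adjusted p 0.018). Grb10, a growth inhibitor, lay inside 2-fold (0.23 ± 0.06).

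Interferon-stimulated genes included some with large differences in each direction. Of 31 tested, 8 were higher (25.8%, beside 26.6% of all genes) and 13 lower (41.9%, beside 27.0%), at a median of -0.18. Between the compared groups, 4 reached the filter's minimum only in K36M under TGF-beta, 3 only in WT under Repsox and 4 in neither. The filter thus fixed the direction of some of these genes. Without WT replicate 1 the lower genes were 8, a share near that of all genes. Gbp2, an interferon-induced GTPase, was at 0.876 and 1.36 against 36.3 and 35.6 CPM (5.01 ± 0.22). Oas3, a sensor of double-stranded RNA, was at 0.270 and 0 against 9.22 and 11.8 CPM (6.11 ± 0.46, and 5.23 to 10.08 when either WT library was left out). Bst2, or tetherin, was at 63.4 and 57.6 against 144 and 137 CPM (1.22 ± 0.09). Rsad2, or viperin, was at 7.89 and 7.63 against 2.58 and 3.41 CPM (-1.38 ± 0.19), and Isg15, a ubiquitin-like modifier, at 4.18 and 3.55 against 1.56 and 1.92 CPM (-1.16 ± 0.29). The sensor Ifih1, or MDA5, was lower (-2.84 ± 0.25). Stat2 (0.56 ± 0.12) and Oasl2 (-0.04 ± 0.20) lay inside 2-fold. Rsad2 reached 163 and 165 CPM in K36M under Repsox. The summed level of the list was 288 ± 9.30 CPM (SD, n = 2) in WT cells with Repsox and 437 ± 6.63 in K36M cells with TGF-beta, beside 1311 ± 27.9 in K36M cells with Repsox. Of 11 genes of MHC class I and antigen processing 9 were higher and none lower, at a median of 0.97. Of the 11, 2 reached the filter's minimum in K36M under TGF-beta and not in WT under Repsox, and 0 the other way. H2-D1 was not called (-0.23 ± 0.10), had an unadjusted edgeR p below 0.05 as the lone lower gene, and was called lower without WT replicate 2 (-0.31, adjusted p 0.012) or without K36M replicate 2 (-0.37, adjusted p 0.018), and with the replicate number as a block (-0.24, adjusted p 0.049). DESeq2 called none lower. H2-K1 was at 16.6 and 20.6 against 83.8 and 73.0 CPM (2.08 ± 0.11), the peptide transporter Tap2 at 6.00 and 5.51 against 29.9 and 28.8 CPM (2.35 ± 0.16) and B2m at 40.6 and 61.6 against 62.4 and 71.9 CPM (0.40 ± 0.13). The B2m call was lost with DESeq2 (adjusted p 0.13), without WT replicate 1 (edgeR, 0.12 at adjusted p 0.35) and without K36M replicate 2 (0.29 at adjusted p 0.15). Tap1 (0.97 ± 0.10) was higher and Tapbp (0.75 ± 0.10) lay inside 2-fold. The class I genes have near-identical copies, so their counts are uncertain.

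The promoters of genes that went opposite ways are shown because they hold the same motif. The 200 bases before the start of 4 genes (RefSeq, GRCm38.p6) are written 5′ to 3′ on the gene's strand, with matches to GAAA, any 2 bases and GAAA again, the pattern of the interferon-stimulated response element, in capitals on either strand. Gbp2 (higher) lies on the + strand at chr3:142620463-142620662, Oas3 (higher) on the - strand at chr5:120777660-120777859, Rsad2 (lower) on the - strand at chr12:26456453-26456652 and Isg15 (lower) on the - strand at chr4:156200819-156201018.
Gbp2: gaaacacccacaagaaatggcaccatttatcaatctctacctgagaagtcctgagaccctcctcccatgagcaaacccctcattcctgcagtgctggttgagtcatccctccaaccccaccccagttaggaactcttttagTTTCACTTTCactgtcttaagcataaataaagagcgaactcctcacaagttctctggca
Oas3: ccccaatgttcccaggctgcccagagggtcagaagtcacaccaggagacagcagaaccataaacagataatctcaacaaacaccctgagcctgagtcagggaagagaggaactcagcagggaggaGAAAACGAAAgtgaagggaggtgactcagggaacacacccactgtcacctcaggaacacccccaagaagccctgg
Rsad2: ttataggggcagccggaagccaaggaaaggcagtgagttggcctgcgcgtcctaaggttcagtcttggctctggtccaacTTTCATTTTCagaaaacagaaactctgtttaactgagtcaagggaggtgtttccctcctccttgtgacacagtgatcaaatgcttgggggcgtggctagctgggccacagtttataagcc
Isg15: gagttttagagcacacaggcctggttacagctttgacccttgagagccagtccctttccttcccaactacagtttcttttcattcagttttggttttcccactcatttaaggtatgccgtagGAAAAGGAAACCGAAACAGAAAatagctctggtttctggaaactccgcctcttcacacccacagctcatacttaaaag
The match began 59 bases before the start in Gbp2, 75 in Oas3 and 120 in Rsad2, and Isg15 held 3 overlapping matches, beginning 78, 72 and 66 bases before the start. Of 31 list genes 22 had a promoter in the table. Over windows from 250 bases before to 50 after the start, 12 of these (54.5%) held the motif, against 3.99% of all 27025 genes with a promoter and 3.44% of all 32851 promoters. Among the 7 higher genes with a promoter 6 held it, among the 10 lower genes 5, and among the 5 not called 1. A match is a description of the letters, and binding was not measured.

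Genes of germ cells and meiosis were low in every group. Of 22 such genes with counts listed, 21 passed the filter on low counts, 12 of them with enough reads in K36M under TGF-beta and not in WT under Repsox, 1 the other way, 5 in neither of these groups and 3 in both. The filter thus fixed much of their direction, and the 15 called higher are given as a description. Of the 3 with enough reads in both groups, Tdrkh and Piwil2 were called higher and Tdrd1 was not called. The summed level was 25.2 ± 0.140 CPM (SD, n = 2) in WT cells with Repsox and 89.7 ± 6.67 in K36M cells with TGF-beta, beside 142 ± 5.37 in K36M cells with Repsox and 6.09 ± 0.280 in WT cells with TGF-beta. Smc1b, a meiotic cohesin subunit, was at 0.809 and 0.0755 against 8.36 and 12.4 CPM (4.46 ± 0.41, and 3.66 to 6.92 when either WT library was left out). Tdrkh, of the piRNA pathway, was at 1.15 and 1.28 against 11.9 and 11.9 CPM (3.28 ± 0.29) and Piwil2 at 16.5 and 16.5 against 36.5 and 36.1 CPM (1.14 ± 0.12). Sycp1, of the synaptonemal complex, was at 0.270 and 0.151 against 3.05 and 3.32 CPM (3.84 ± 0.61) and Hormad1 at 0.404 and 0.378 against 2.03 and 1.92 CPM (2.31 ± 0.53). Stra8, the retinoic acid target of meiotic entry, had no read in any WT library, at least 12.7-fold higher. Ddx4 was higher (2.22 ± 0.41), and Dazl, a defining germ cell gene, was not called (0.45 ± 0.54) and reached at most 1.05 CPM in either group.

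The promoters of Sycp1 and Hormad1 are shown with CACGTG, the E-box pattern found at many germline genes that are silenced in somatic cells, in capitals. Sycp1 lies on the - strand at chr3:102936101-102936300 and Hormad1 on the + strand at chr3:95559477-95559676 (RefSeq, GRCm38.p6).
Sycp1: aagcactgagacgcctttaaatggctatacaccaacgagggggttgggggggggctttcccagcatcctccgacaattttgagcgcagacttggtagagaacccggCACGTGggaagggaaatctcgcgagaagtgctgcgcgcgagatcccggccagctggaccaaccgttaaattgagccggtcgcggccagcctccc
Hormad1: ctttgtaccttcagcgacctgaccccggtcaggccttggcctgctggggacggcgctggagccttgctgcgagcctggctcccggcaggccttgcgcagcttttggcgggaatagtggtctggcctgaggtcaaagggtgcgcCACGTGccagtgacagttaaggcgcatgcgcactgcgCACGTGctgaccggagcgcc
The match began 94 bases before the start in Sycp1, and 57 and 20 bases before it in Hormad1. Of 19 list genes with a promoter 9 (47.4%) held the motif in the full window, against 8.09% of all genes and 7.15% of all promoters. It was in 7 of the 14 higher genes and 2 of the 5 not called.

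Mitotic genes were higher in 25 of 25, by a median of 0.60, and 19 of them lay inside 2-fold. Mki67, the proliferation marker, was at 464 and 507 against 899 and 962 CPM (0.94 ± 0.06), Top2a at 448 and 453 against 804 and 783 CPM (0.82 ± 0.06) and Cenpf at 223 and 217 against 514 and 509 CPM (1.21 ± 0.07). Cdc20, an activator of the anaphase complex, was higher by 0.42 ± 0.08. Genes of DNA replication stayed closer, with 3 higher, 6 lower and 22 of 25 inside 2-fold, at a median of -0.01. Mcm2, a subunit of the replicative helicase, was at 240.4 and 224 against 239 and 241 CPM (0.05 ± 0.07), Uhrf1 differed by 0.15 ± 0.08 (not called, but called higher without WT replicate 1 at 0.29 and adjusted p 0.0011 in edgeR's test) and the cyclin Ccne1 by -0.88 ± 0.09. The nucleotide synthesis genes Rrm1 and Tyms differed by 0.52 ± 0.07 and -0.66 ± 0.13. WT cells under TGF-beta stood apart from both, with 67.0 and 69.7 CPM of Mcm2 and 111 and 109 CPM of Mki67. Of 58 replication-dependent histone genes 30 were higher, 5 lower and 40 inside 2-fold. Among these 58, 2 reached the filter's minimum in WT under Repsox and not in K36M under TGF-beta, and 1 in neither group. Hist1h1c was at 344 and 307 against 708 and 609.8 CPM (1.02 ± 0.08), while Hist1h4m and Hist1h2al, at 16.6 and 26.6 and 10.9 and 14.3 CPM in WT under Repsox, had no read in K36M under TGF-beta (at least 172-fold and 101-fold lower). Hist1h1d (0.54 ± 0.08) and Hist1h4d (0.50 ± 0.08) lay inside 2-fold. Histone genes have near-identical copies, so single members are uncertain.

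The promoters of Top2a and Mki67 are shown with TTTGAA, the pattern of the cell cycle homology region, in capitals on either strand. Top2a lies on the - strand at chr11:99024190-99024389 and Mki67 on the - strand at chr7:135716380-135716579 (RefSeq, GRCm38.p6).
Top2a: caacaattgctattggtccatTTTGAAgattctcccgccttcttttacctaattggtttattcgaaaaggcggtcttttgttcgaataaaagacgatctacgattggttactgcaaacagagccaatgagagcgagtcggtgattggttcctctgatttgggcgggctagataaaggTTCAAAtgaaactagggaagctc
Mki67: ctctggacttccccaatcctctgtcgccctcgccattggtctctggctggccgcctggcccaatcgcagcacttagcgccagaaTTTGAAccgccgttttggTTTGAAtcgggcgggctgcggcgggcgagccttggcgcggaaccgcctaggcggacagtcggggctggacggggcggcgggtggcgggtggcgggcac
Matches began 179 and 23 bases before the start in Top2a, and 116 and 98 in Mki67. Of 21 list genes with a promoter 14 (66.7%) held the motif in the full window, against 20.2% of all genes and 17.9% of all promoters.

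Genes for the enzymes and readers of H3K36 methylation, listed together with H3.3 and histone chaperone genes, stayed close between the groups. All 23 tested had an interval inside 2-fold, with 7 higher (30.4%), 6 lower (26.1%) and a median of -0.04, shares near those of all genes. The 7 became 4 with no filter on low counts or with only the 4 compared libraries in the fit, and 3 without K36M replicate 1. Setd2 was at 235 and 238 against 210.3 and 231 CPM (-0.10 ± 0.07) and Nsd1 at 577 and 533 against 479 and 524 CPM (-0.15 ± 0.07), neither called, though Nsd1 was called lower without WT replicate 2 (-0.20, adjusted p 0.0072, edgeR) and without K36M replicate 2 (-0.21, adjusted p 0.037), with library totals as the scaling (-0.16, adjusted p 0.046) and with no filter on low counts (-0.20, adjusted p 0.010). The H3.3 gene H3f3a was at 101 and 102 against 90.2 and 84.5 CPM (-0.22 ± 0.08), a call lost without K36M replicate 2 (edgeR, -0.17 at adjusted p 0.19), with upper quartile scaling (-0.16 at 0.11), with only the 4 compared libraries (-0.22 at 0.080) and with DESeq2 (-0.20 at 0.077), and H3f3b at 247 and 246 against 339 and 304 CPM (0.38 ± 0.07). Gene counts do not tell a mutant H3 transcript from a normal one. The histone chaperone genes Hira and Daxx were lower (-0.54 and -0.56). The methyltransferase Ash1l and the demethylase Kdm4c differed by -0.55 ± 0.08 and 0.49 ± 0.08, and the remodeller Atrx by -0.32 ± 0.07.

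Of 12 DNA methylation genes 1 was higher and 7 lower, at a median of -0.44. The demethylases Tet1 and Tet2 carried the largest changes, with Tet1 at 437 and 414 against 159 and 167 CPM (-1.38 ± 0.07) and Tet2 at 240.2 and 226 against 79.1 and 101 CPM (-1.38 ± 0.10). Tet3 differed by -0.90 ± 0.08. The methyltransferases Dnmt1 (-0.07 ± 0.08; -0.18 at adjusted p 0.015, called, without WT replicate 2) and Dnmt3a (0.09 ± 0.09) were not called, and Dnmt3b differed by -0.45 ± 0.09. Trim28, a corepressor at retroelements, lay inside 2-fold (-0.43 ± 0.09). Of 24 Polycomb genes 5 were higher (20.8%) and 6 lower (25.0%), near the 26.6% and 27.0% of all genes, and 20 lay inside 2-fold. The 5 became 3 without WT replicate 1 or without K36M replicate 2. The catalytic subunit Ezh2 was not called (-0.14 ± 0.09), and Aebp2 was at 196 and 205 against 99.6 and 105 CPM (-0.97 ± 0.08). Cbx6 and E130012A19Rik differed by -0.53 ± 0.09 and -1.35 ± 0.11, and the histone-binding genes Rbbp4 and Rbbp7 lay inside 2-fold (0.09 ± 0.07 and 0.31 ± 0.07). Of 33 Hox genes, whose order along the chromosome follows the body axis, 5 were higher and 15 lower, at a median of -0.40 (5 became 3 without WT replicate 2 or without K36M replicate 1). Of the 33, 8 reached the filter's minimum in WT under Repsox and not in K36M under TGF-beta, and 2 the other way. Hoxc8 was at 22.5 and 28.3 against 10.3 and 11.4 CPM (-1.23 ± 0.15) and Hoxb9 at 17.1 and 17.6 against 6.17 and 6.82 CPM (-1.42 ± 0.17). In WT under TGF-beta Hoxc8 was at 128 and 127 CPM, and in K36M under Repsox at 1.65 and 2.90 CPM. Hoxa3 (0.25 ± 0.22) and Hoxc6 (-0.38 ± 0.13) lay inside 2-fold.

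The p53 list stayed close between the groups, with 17 of 18 genes inside 2-fold and a median of 0.05. Of the 18, 5 were higher (27.8%) and 6 lower (33.3%), beside 26.6% and 27.0% of all genes. The 6 became 3 with upper quartile scaling, with DESeq2 and without K36M replicate 2. The cell cycle inhibitor Cdkn1a was at 457 and 442 against 372 and 359.6 CPM (-0.30 ± 0.06), between 1180.3 and 1155 CPM in WT under TGF-beta and 146 and 156 CPM in K36M under Repsox. Cdkn2a was not called (0.19 ± 0.10), but was called higher without WT replicate 1 (0.32, adjusted p 0.0038, edgeR) and with upper quartile scaling (0.25, adjusted p 0.027). Perp, also an epithelial adhesion gene, was higher (1.08 ± 0.08). Btg2 differed by 0.41 ± 0.07. AP-1 genes gave 3 higher (30.0%) and 4 lower (40.0%) of 10, beside 26.6% and 27.0% of all genes. Among these 10, 1 reached the filter's minimum in WT under Repsox and not in K36M under TGF-beta, and 0 the other way. Fosl1 was lower (-2.70 ± 0.25) and Jun was not called (-0.06 ± 0.08). Batf3 differed by -2.70 ± 0.39 and Fosl2 by -0.45 ± 0.07, and Jund lay inside 2-fold (0.46 ± 0.11). Of 13 YAP targets 10 were higher and 3 lower, at a median of 0.68. Amotl1 was at 159.6 and 146 against 361 and 369 CPM (1.26 ± 0.07) and Axl, a receptor kinase, at 339 and 305 against 109 and 117 CPM (-1.51 ± 0.07). Ctgf and Cyr61 are in this list and in the TGF-beta response list. Amotl2 (0.68 ± 0.07) and Ptpn14 (0.59 ± 0.06) lay inside 2-fold.

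Of 21 glycolysis genes 20 were higher and none lower, at a median of 0.62. No glycolysis gene was lower by an unadjusted edgeR p below 0.05 or by DESeq2. The glucose transporter Slc2a3 was at 924 and 881 against 3419 and 3395 CPM (1.92 ± 0.06), Slc2a1 at 667 and 641 against 1516 and 1453 CPM (1.18 ± 0.06), the lactate exporter Slc16a3 at 71.6 and 71.9 against 232 and 257 CPM (1.77 ± 0.08) and Aldoa, aldolase, at 1258 and 1183 against 2887 and 2776 CPM (1.21 ± 0.05). Gapdh (0.56 ± 0.06) and Pkm2 (0.23 ± 0.06) were inside 2-fold. The summed level was 10068 ± 590.1 CPM (SD, n = 2) in WT cells with Repsox and 18260.3 ± 344 in K36M cells with TGF-beta. It was also high in K36M cells with Repsox, at 16504 ± 235, and was 7095 ± 4.56 in WT cells with TGF-beta. Respiratory chain genes stayed close, with 71 of 73 inside 2-fold at a median of 0.05 (12 higher and 8 lower, which became 20 and 5 without WT replicate 2, 5 higher without K36M replicate 1, and 4 lower without K36M replicate 2 or with DESeq2). Ndufa7, Atp5j2 and Uqcrq had the smallest adjusted p among them (0.76, -0.71 and -0.50). Ribosomal protein genes were inside 2-fold in 79 of 80, with 49 higher and 1 lower at a median of 0.22, and 22 higher without K36M replicate 1. Rpl22, Rpl3 and Rps3a differed by 0.80, 0.74 and 0.70, and the abundant Rpl4 and Rplp0 by 0.20 and 0.55. Many of these have processed copies, so that single members are uncertain. Among the most abundant genes inside 2-fold were Hsp90ab1, a chaperone, at 3912 and 3696 against 3975 and 4006 CPM (0.07 ± 0.05), and Atp5b, of the ATP synthase, at 1295 and 1233 against 1279 and 1223 CPM (-0.02 ± 0.06). Others were Atp5a1 (-0.02), Eef2 (0.25), Ahnak (-0.88), Hspg2 (-0.32), Eef1a1 (0.13), Actb (-0.13) and Malat1 (-0.18).

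Lists for cell types that the cultures could hold were mostly low, and their part in the results above was not tested. Of 11 striated muscle genes, 6 of which reached the filter's minimum in K36M under TGF-beta and not in WT under Repsox, 6 were higher and 1 lower, and the list summed to 79.9 and 78.8 CPM in WT under Repsox and 93.6 and 104 CPM in K36M under TGF-beta. Actc1, cardiac actin, was at 0.135 and 0.227 against 7.58 and 7.69 CPM (5.35 ± 0.58), and Ttn was not called (-0.12 ± 0.11). Myl4 and Tnnt1 differed by -1.96 ± 0.14 and 3.54 ± 0.39. Of 10 keratinocyte genes 6 were higher and 1 lower, with sums of 101 and 87.5 against 349 and 327 CPM. Of these 10, 3 reached the filter's minimum in K36M under TGF-beta and not in WT under Repsox, and 2 the other way. Krt17 was at 1.82 and 2.64 against 47.4 and 50.2 CPM (4.46 ± 0.23) and Krt14 at 6.88 and 5.14 against 20.9 and 19.2 CPM (1.73 ± 0.20), while Trp63, which defines the lineage, was not called and at most 2.27 CPM in either group. Sfn was higher (1.70 ± 0.09) and Col17a1 lay inside 2-fold (0.41 ± 0.24). Of 9 endothelial genes 3 were higher (33.3%) and 3 lower (33.3%), beside 26.6% and 27.0% of all genes. Among these 9, 1 reached the filter's minimum in WT under Repsox and not in K36M under TGF-beta, and 2 in neither group. Flt1 was higher (2.39 ± 0.14), and Cdh5, the defining endothelial cadherin, was at 1.21 and 1.59 against 0.313 and 0.0874 CPM. Tek (1.35 ± 0.10) and Tie1 (2.19 ± 0.37, and 1.46 to 3.56 when either WT library was left out) were higher. Of 15 primitive endoderm genes 7 were higher (46.7%) and 4 lower (26.7%), beside 26.6% and 27.0% of all genes. Of the 15, 4 reached the filter's minimum in K36M under TGF-beta and not in WT under Repsox. Another 2 reached it in neither group, and 0 in WT under Repsox alone. Gata6 was not called (0.40 ± 0.37), and Sox17 was at 0.270 and 0.302 against 1.33 and 0.786 CPM. The laminin genes Lama1 and Lamb1 differed by -1.41 ± 0.08 and 1.25 ± 0.06. Of 12 neural genes 4 were higher (33.3%) and 7 lower (58.3%), beside 26.6% and 27.0% of all genes. Among these 12, 2 reached the filter's minimum in K36M under TGF-beta and not in WT under Repsox, and 2 in neither group. Nefm was lower (-3.16 ± 0.22), Tubb3 differed by -1.62 ± 0.13 and Ncam1 lay inside 2-fold (-0.66 ± 0.12). Of 10 cartilage and bone genes 4 were higher (40.0%) and 3 lower (30.0%), beside 26.6% and 27.0% of all genes. Among these 10, 2 reached the filter's minimum in K36M under TGF-beta and not in WT under Repsox, and 2 the other way. Sp7, the osteoblast factor, was at 13.4 and 13.0 against 0.156 and 0.0874 CPM, a ratio of 107 (36.3 to 520). Runx2 differed by -1.63 ± 0.16, and Sox9 (-0.19 ± 0.26) and Col10a1 (-0.09 ± 0.32) lay inside 2-fold. Of 6 macrophage and blood genes 1 was higher (16.7%) and 3 lower (50.0%), beside 26.6% and 27.0% of all genes. Among these 6, 1 reached the filter's minimum in WT under Repsox and not in K36M under TGF-beta, and 2 in neither group. Lyz2 was at 3.98 and 4.46 against 0.0781 and 0.175 CPM, a ratio of 34.0 (11.3 to 167). Runx1 and Cd68 differed by -1.03 ± 0.09 and 1.24 ± 0.13, and Csf1r lay inside 2-fold (-0.53 ± 0.18). All 3 tested adipocyte genes were lower, Lpl by -1.24 ± 0.17, Cebpa by -0.90 ± 0.20 and Pparg as given above. Of the 3, 1 reached the filter's minimum in WT under Repsox and not in K36M under TGF-beta, and 0 the other way.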

How the data were processed

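The deposited table holds whole-number read counts per gene, made by the authors from rRNA-depleted total RNA. Per the submitters' processing notes the tools were STAR 2.5.0, HTSeq 0.11.2 and edgeR and the build mm9, while the annotation and strand setting are not given in the sources used here. Gene positions were taken from GENCODE vM1 (26763 of 26930 IDs matched). The test was edgeR's quasi-likelihood F test (version 4.0.16, under R 4.3.3) with filterByExpr, which a gene can pass through any 1 group, TMM scaling and 1 mean per group over all 8 libraries, so that all groups shared 1 estimate of the spread, and p-values were adjusted by the Benjamini-Hochberg method. Standard errors were the log2 fold change divided by the square root of F, and could not be had for 9 genes. Where a group had 0 reads, the fold is a bound against 3 counts over the group, and with 1 to 3 reads a count ratio with its exact 95% interval is given. In simulated counts for this comparison the test called 97% of genes changed 2-fold, 100% of those changed 4-fold and 0.053% of unchanged genes, over 15220 genes fitted. The changed genes, 100 at each fold, were drawn only from genes above a minimum mean count. All other genes had the same mean in every group. These shares therefore do not cover genes with few counts or data in which many genes differ.

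The labels do not say whether replicates were separate cultures, so p-values measure the spread between these libraries, which may be technical. Replicate numbers did not pair libraries, with correlations of deviations from the group means of -0.0202 to 0.0315. Library totals were 10928302 to 15594217 counts, and standard errors include the spread between libraries beyond counting error. The comparison, its 39 gene lists and the rule for named genes were chosen with earlier results of these data known. Of the list entries 10 matched no row and were not analysed here. The rule named the 12 largest increases and 12 largest decreases among called genes whose groups did not overlap and whose average log2 CPM reached 2, leaving out predicted loci, pseudogenes and histone genes. From each list it named 3 called members, by smallest adjusted p, and the 2 most abundant members inside 2-fold. It also named the 10 most abundant genes inside 2-fold and 17 genes followed whatever their values. Some genes that the rule named are not reported here. Other genes in the text were chosen after their values were seen. Alternatives were other scalings, other filters, DESeq2 1.42.0, a fit to 4 libraries, the replicate number as a block, each library left out, a test against a fold of 2 (glmTreat), a margin of 1.5-fold and an adjusted p below 0.01.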

Additional observations from a re-analysis of the deposited data

How the results depend on the processing

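No called gene named in the text changed sign under any alternative run. At the same threshold and with both libraries kept in each group, the total called, 8471, ran from 7383 (DESeq2) to 8628 (no filter on low counts). At an adjusted p below 0.01 in edgeR's test, which by construction is stricter, 3350 genes were higher and 3394 lower. Genes inside 2-fold, 8799, ran from 8186 to 8970, and were 5225 at a margin of 1.5-fold, which by construction is stricter. Tested against a fold of 2 with glmTreat, 1095 genes were higher and 1062 lower, in place of 1876 and 1680. Upper quartile scaling moved the median of all genes by 0.064 on the log2 scale and the share of calls that were higher from 49.6% to 55.7%. The balance of calls, 4204 higher and 4267 lower, turned to 4725 and 3760 with that scaling, 4380 and 4106 with RLE size factors, 3799 and 3584 with DESeq2 and 3910 and 3882 with only the 4 compared libraries. With the replicate number as a block 8525 genes were called, 8379 of them also called without it; the numbers did not pair the libraries. The cause of the following changes was not tested. Lower p53 genes were 3 in place of 6 with upper quartile scaling and with DESeq2. Higher genes of the H3K36 and H3.3 list were 4 in place of 7 with no filter and with only the 4 compared libraries. Lower respiratory genes were 4 in place of 8 with DESeq2. With 1 library left out, lower interferon genes ran from 8 to 10, lower p53 genes from 3 to 6, higher H3K36 genes from 3 to 6, higher Polycomb genes from 3 to 5 and higher Hox genes from 3 to 5. Higher respiratory genes ran from 5 to 20, lower ones from 4 to 10, and higher ribosomal genes from 22 to 60. A lone library was then assumed to vary like the other groups. Intervals were inside 2-fold for 5.33% of genes with an average log2 CPM under 2 and 73.1% of the others; depth itself was not varied.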

Other observations

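A few genes were split by genotype in both media. In 11 genes no K36M library had a read while every WT library had at least 10. Tnfsf11, the RANKL cytokine gene on chromosome 14, was at 9.17 and 8.54 CPM in WT under Repsox and at 3.44 and 4.38 CPM in WT under TGF-beta. Lrrc4c, a synaptic adhesion gene, was at 1.21 and 0.755 CPM under Repsox and at 4.73 and 4.81 CPM under TGF-beta. Slc9a9, an ion exchanger gene, was at 3.24 and 2.72 CPM and at 2.41 and 1.08 CPM, and Il1rl1, a receptor gene for interleukin 33, at 1.15 and 2.27 CPM and at 1.55 and 1.36 CPM. The pseudogene Rps13-ps1 was at 21.9 and 31.1 CPM and at 21.5 and 19.7 CPM. The others were Gm7292, Hist1h2al, 2310002L13Rik, 3110082D06Rik, 8030451A03Rik and C230034O21Rik.

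In 7 genes no WT library had a read while every K36M library had at least 10. Slfn4, an interferon-induced gene of the Schlafen family, was at 3.52 and 1.57 CPM in K36M under TGF-beta and at 2.04 and 2.41 CPM in K36M under Repsox. Ifi27l2a, also induced by interferon, was at 3.28 and 1.83 CPM and at 4.35 and 3.78 CPM. Stra8 was at 0.938 and 1.83 CPM and at 0.988 and 1.93 CPM, and H2-Oa, an MHC class II accessory gene, at 1.25 and 1.14 CPM and at 0.856 and 0.804 CPM. The others were H2-Q2, Gm1401 and Rpl3-ps2. Counts of pseudogenes, histone genes and H2-Q2 are uncertain, since reads can be split among near-identical copies. These genes were chosen after their values were seen, and no explanation was tested.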
